A study of Mus musculus with 9 samples.

Results

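The reads described here are small RNA reads that run 2 or 3 bases past the annotated 3′ end of a mature miRNA and end in Ts, so that they carry a tail of 2 or 3 added Ts. They were taken from the list of distinct read sequences of each library by the difference between the end of the read and the end of the mature sequence. Over 9 libraries they comprised 300 of 3852 distinct sequences and 22892 of 2725482 miRNA reads (0.84%), and they came from 166 of the 817 miRNAs listed. Of the sequences, 207 carried 2 Ts (20522 reads) and 93 carried 3 Ts (2370 reads). For comparison, 361932 reads carried 1 added T.

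The small RNA libraries came from mouse Meis1/Hoxa9 cells, which are preleukemic cells grown from c-Kit-enriched fetal liver cells of E14.5 C57BL/6 embryos after retroviral transduction with Meis1 and Hoxa9, and kept in medium with SCF, IL-6 and IL-3. The 5 control libraries (Tut4/7CTL) came from Tut4 fl/fl;Tut7 fl/fl cells without Vav-iCre and are labelled wild type, although they carry the floxed alleles. The 4 knockout libraries (Tut4/7cKO) came from cells with the same alleles and Vav-iCre, a recombinase active in cells of the hematopoietic system. All 9 cultures therefore shared the floxed alleles and both retroviral oncogenes, and they differed in the presence of Vav-iCre. Small RNA libraries hold no Tut4 or Tut7 mRNA, so the genotype had no direct check here, and the cells had no mRNA markers to be checked against.

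TUT4 and TUT7 are terminal uridylyltransferases that add uridines, read as T, to the 3′ ends of RNA. On miRNA precursors a single uridine can help Dicer processing, whereas a longer uridine tail marks the precursor for decay by the exonuclease DIS3L2, as happens to let-7 precursors bound by LIN28. On mature miRNAs a short tail can change stability and target choice. The comparison asked how the longer of the tails visible in these files differed between cells with and without the enzymes.

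Where the genome itself continues with Ts past the mature 3′ end, a templated end cannot be told from an added tail, so the bases after each mature sequence decide how a read can be interpreted. Each mature sequence was located in GRCm39. The first set of sequences shows miRNAs whose reads with 2 Ts match the genome, with the reads above the genomic sequence, and capitals mark the Ts after the annotated 3′ end. miR-181a-5p, known from lymphoid and myeloid development, lies at chr1:137894206-137894228 (plus strand, in an exon of the lncRNA gene Mir181a-1hg) and at chr2:38742753-38742775 (plus strand, in an intron of Nr6a1os). miR-92a-3p, of the oncogenic miR-17-92 cluster, lies at chr14:115281908-115281928 (plus strand, in an exon of Mir17hg) and at chrX:51830731-51830751 (minus strand, in an intron of Kis2). miR-155-5p, an immune and leukemia miRNA, lies at chr16:84511031-84511053 (plus strand, in an exon of Mir155hg).
miR-181a-5p read with 2 Ts: aacattcaacgctgtcggtgagtTT
miR-181a-5p read with 3 Ts: aacattcaacgctgtcggtgagtTTT
genome at Mir181a-1: aacattcaacgctgtcggtgagtTTgga
genome at Mir181a-2: aacattcaacgctgtcggtgagtTTggg
miR-92a-3p read with 2 Ts: tattgcacttgtcccggcctgTT
miR-92a-3p read with 3 Ts: tattgcacttgtcccggcctgTTT
genome at Mir92-1: tattgcacttgtcccggcctgTTgag
genome at Mir92-2: tattgcacttgtcccggcctgaggaa
miR-155-5p read with 3 Ts: ttaatgctaattgtgataggggtTTT
genome at Mir155: ttaatgctaattgtgataggggtTTTgg

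The second set shows miRNAs that gave many reads with 2 or 3 Ts although no T follows them at any locus. They are miR-223-3p, a regulator of granulocyte production (chrX:95286490-95286511, plus strand, in an exon of Mir223hg), miR-27b-3p (chr13:63448574-63448594, plus strand, in an exon of Aopep), miR-148b-3p (chr15:103193612-103193633, plus strand, in an intron of Copz1), miR-320-3p, whose precursor forms without Drosha (chr14:70680997-70681018, plus strand, in an intron of Phyhip), and miR-423-3p (chr11:76968912-76968934, minus strand, in an intron of Nsrp1).
miR-223-3p read with 2 Ts: tgtcagtttgtcaaataccccaTT
genome at Mir223: tgtcagtttgtcaaataccccaagtgt
miR-27b-3p read with 2 Ts: ttcacagtggctaagttctgcTT
genome at Mir27b: ttcacagtggctaagttctgcacctg
miR-148b-3p read with 2 Ts: tcagtgcatcacagaactttgtTT
miR-148b-3p read with 3 Ts: tcagtgcatcacagaactttgtTTT
genome at Mir148b: tcagtgcatcacagaactttgtctcga
miR-320-3p read with 2 Ts: aaaagctgggttgagagggcgaTT
genome at Mir320: aaaagctgggttgagagggcgaaaaag
miR-423-3p read with 2 Ts: agctcggtctgaggcccctcagtTT
genome at Mir423: agctcggtctgaggcccctcagtcttgc

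The third set shows let-7 members, which share the seed gaggtag (bases 2 to 8). let-7a-5p lies at chr13:48691715-48691736 (minus strand, in an exon of the lncRNA gene 6720427I07Rik) and chr9:41448028-41448049 (plus strand, in an intron of Mir100hg). let-7f-5p lies at chr13:48691365-48691386 (minus strand, in an exon of the same lncRNA gene) and chrX:150695349-150695370 (plus strand, in an intron of Huwe1). let-7i-5p lies at chr10:122821603-122821624 (minus strand, in an exon of Gm63655).
let-7a-5p read with 2 Ts: tgaggtagtaggttgtatagttTT
genome at Mirlet7a-1: tgaggtagtaggttgtatagttTTagg
genome at Mirlet7a-2: tgaggtagtaggttgtatagttTagag
let-7f-5p read with 2 Ts: tgaggtagtagattgtatagttTT
genome at Mirlet7f-1: tgaggtagtagattgtatagttgtggg
genome at Mirlet7f-2: tgaggtagtagattgtatagttTTagg
let-7i-5p read with 2 Ts: tgaggtagtagtttgtgctgttTT
genome at Mirlet7i: tgaggtagtagtttgtgctgttggtcg

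Of the 300 sequences, 53 matched GRCm39 with all their Ts and 247 matched nowhere in it. The 53 held 15614 reads (68.2%) and the 247 held 7278 reads (31.8%). A read that matches the genome can be a templated end or an added tail, and the read alone does not tell these apart. Of the 166 miRNAs, 102 had no T after the mature sequence at any locus, 37 had 1, 18 had 2 and 9 had 3 or more.

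A few miRNAs gave most of these reads. miR-181a-5p alone gave 11316 of the 22892 and miR-92a-3p gave 3730, together 65.7%, and the first 10 miRNAs gave 87.3%. After these 2 came miR-223-3p (1217 reads), miR-181b-5p (1175), miR-26b-5p (596), miR-27b-3p (544), miR-155-5p (431), miR-148b-3p (392), miR-320-3p (311) and let-7a-5p (281). At the other end, 53 of the 166 miRNAs had a single such read. The 4 miRNAs with the miR-181 seed acattca held 12568 of the reads, and the 3 with the seed attgcac of miR-25 and miR-92 held 3867.

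Reads with 2 or 3 added Ts were scarcer in every Tut4/7cKO library than in any Tut4/7CTL library. They made up 1.92, 0.627, 1.26, 1.5 and 1.69% of miRNA reads in Tut4/7CTL replicates 1 to 5, and 0.369, 0.395, 0.272 and 0.280% in Tut4/7cKO replicates 1 to 4. The library labelled Tut4/7CTL replicate 2 was the lowest of its group, and it was also the lowest Tut4/7CTL library in tails of 3 Ts and in Ts that the genome does not encode. The mean share was 1.40% ± 0.495 (SD, n = 5) against 0.329% ± 0.0622 (SD, n = 4), which was 4.25 times lower in Tut4/7cKO (P = 0.0159 in a two-sided exact permutation test, which cannot go lower with 5 and 4 libraries). Without Tut4/7CTL replicate 2 the Tut4/7CTL mean was 1.59% ± 0.280 (exact permutation test, P = 0.0286, the smallest for 4 against 4). The 95% Wilson intervals of these shares were at most 0.117 percentage points wide. Intervals, and the limit of 3 counts used below for a count of 0, cover counting error only, since the reads carry no molecular identifiers and may be copies of 1 molecule. P values measure the spread between these libraries. In all, 7 comparisons of whole libraries were made, and each had an adjusted P of 0.0159 (exact permutation tests with Benjamini-Hochberg adjustment).

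Fewer miRNAs carried such a tail in each Tut4/7cKO library, although 3 of the 4 were deeper than every Tut4/7CTL library and replicate 1 was the shallowest of all. In Tut4/7CTL replicates 1 to 5, 83, 49, 89, 105 and 97 miRNAs had at least 1 read with 2 or 3 added Ts, at 209702 to 316620 miRNA reads. The miRNAs detected in these libraries numbered 443, 445, 472, 464 and 487. In Tut4/7cKO replicates 1 to 4, 24, 28, 34 and 28 miRNAs had such a read, of 399, 475, 474 and 458 detected, at 175462 to 479342 reads. Of the 300 sequences, 224 were read only in Tut4/7CTL libraries, 60 in both genotypes and 16 only in Tut4/7cKO libraries, with 18 reads between those 16. Many of the 300 had a single read, and such a sequence can only fall in 1 genotype. The split was not compared with that of all 3852 distinct sequences, so it describes these sequences and is no test of the tails.

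Reads with encoded and with non-encoded Ts were both scarcer in Tut4/7cKO libraries, and the difference between the 2 falls was not tested. Reads with Ts that match the genome made up 0.867% ± 0.225 (SD, n = 5) of the miRNA reads in Tut4/7CTL against 0.300% ± 0.0577 (SD, n = 4) in Tut4/7cKO libraries, 2.89 times lower (exact permutation test, P = 0.0159). Reads with Ts that the genome does not encode made up 0.83, 0.0933, 0.420, 0.692 and 0.628% in Tut4/7CTL replicates 1 to 5. In Tut4/7cKO replicates 1 to 4 they made up 0.0581, 0.0177, 0.0186 and 0.0214%. The means were 0.532% ± 0.286 (SD, n = 5) and 0.0290% ± 0.0195 (SD, n = 4), 18.4 times lower in Tut4/7cKO (exact permutation test, P = 0.0159). With Tut4/7cKO replicate 1, the highest of its group, left out, the Tut4/7cKO mean was 0.0192% (exact permutation test, P = 0.0357). Without Tut4/7CTL replicate 2, the Tut4/7CTL means were 0.951% ± 0.146 for encoded and 0.642% ± 0.170 for non-encoded Ts (exact permutation tests, P = 0.0286 for both). Encoded Ts accordingly made up 65.1% ± 12.2 (SD, n = 5) of the reads with 2 or 3 Ts in Tut4/7CTL against 91.3% ± 4.90 (SD, n = 4) in Tut4/7cKO libraries. These groups overlapped, with 85.1% in Tut4/7CTL replicate 2 and 84.3% in Tut4/7cKO replicate 1. This split by the genome was chosen after the data were seen.

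Tails of 3 Ts were nearly lost. Tut4/7CTL replicates 1 to 5 held 565, 52, 454, 566 and 715 reads with 3 Ts beside 3460, 1467, 3530, 3425 and 4163 with 2 Ts. Tut4/7cKO replicates 1 to 4 held 5, 3, 7 and 3 reads with 3 Ts beside 643, 1533, 1299 and 1002 with 2 Ts. Per 100 reads with 2 Ts this was 13.3 ± 5.70 (SD, n = 5) reads with 3 Ts in Tut4/7CTL against 0.453 ± 0.260 (SD, n = 4) in Tut4/7cKO libraries, with no overlap between groups (P = 0.0159, exact permutation test). Leaving out Tut4/7CTL replicate 2 gave a Tut4/7CTL value of 15.7 ± 1.94 (exact permutation test, P = 0.0286). The size of this difference depends on reads with 2 Ts that match the genome, many of them from miR-181a-5p. Without miR-181a-5p the means were 11.5 in Tut4/7CTL against 1.87 in Tut4/7cKO libraries. With only non-encoded Ts counted they were 46.9 against 3.88 (exact permutation tests, P = 0.0159 for both). Since the mapping reference ended after 3 added Ts, longer tails were not counted.

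The ratio of longer tails to tails of 1 T was lower as well. Per 100 reads with 1 added T there were 15.3, 6.15, 7.67, 9.87 and 7.32 reads with 2 or 3 Ts in Tut4/7CTL replicates 1 to 5, and 1.95, 3.37, 2.78 and 3.85 in Tut4/7cKO replicates 1 to 4. The means were 9.27 ± 3.65 (SD, n = 5) and 2.99 ± 0.816 (SD, n = 4), a 3.10-fold difference (exact permutation test, P = 0.0159). The size of this difference depended on single miRNAs. Without miR-92a-3p the means were 18.1 in Tut4/7CTL against 10.6 in Tut4/7cKO libraries. Without miR-181a-5p they were 5.22 against 0.530 (exact permutation tests, P = 0.0159 for both). Over all miRNAs this ratio mixes added and genomic Ts in both of its terms. In miRNAs with no genomic T it was 15.9, 5.28, 10.1, 14.8 and 12 in Tut4/7CTL against 5.22, 1.76, 1.53 and 1.39 in Tut4/7cKO libraries. These means were 11.6 ± 4.21 (SD, n = 5) and 2.48 ± 1.84 (SD, n = 4), with P = 0.0159 in the exact permutation test. Tut4/7CTL replicate 2 and Tut4/7cKO replicate 1 were nearly equal, and with only reads that start at the annotated 5′ end the groups overlapped (exact permutation test, P = 0.0317). The Tut4/7CTL mean was 13.2 ± 2.63 without Tut4/7CTL replicate 2 (exact permutation test, P = 0.0286), and the Tut4/7cKO mean was 1.56 without Tut4/7cKO replicate 1 (exact permutation test, P = 0.0357).

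Among the T-tailed reads of miRNAs with no genomic T, single Ts prevailed in both genotypes. In Tut4/7CTL libraries 89.7% ± 3.45 carried 1 T, 9.20% ± 3.04 carried 2 and 1.09% ± 0.487 carried 3 (SD, n = 5). In Tut4/7cKO libraries the shares were 97.6% ± 1.72, 2.32% ± 1.63 and 0.0726% ± 0.0882 (SD, n = 4). For 2 Ts the groups met, with 4.76% in Tut4/7CTL replicate 2 and 4.77% in Tut4/7cKO replicate 1. The reads of these miRNAs with 2 or 3 Ts made up 0.641% ± 0.350 (SD, n = 5) of their reads in Tut4/7CTL against 0.0401% ± 0.0300 (SD, n = 4) in Tut4/7cKO libraries (P = 0.0159, exact permutation test). The Tut4/7CTL share was 0.774% ± 0.216 without Tut4/7CTL replicate 2 (exact permutation test, P = 0.0286), and the Tut4/7cKO share was 0.0252% without Tut4/7cKO replicate 1 (exact permutation test, P = 0.0357).

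miR-181a-5p showed both kinds of read in 1 miRNA. Its reads with 2 Ts, which both of its loci encode, numbered 1518, 1112, 1558, 1017 and 1213 in Tut4/7CTL replicates 1 to 5 and 460, 1361, 1092 and 823 in Tut4/7cKO replicates 1 to 4. Its reads with 3 Ts, which neither locus encodes, numbered 358, 24, 218, 244 and 314 against 1, 0, 2 and 1. The form with 3 Ts was thus nearly absent from Tut4/7cKO libraries, whereas the form with 2 Ts stayed common in both genotypes. Reads with 2 Ts were 10.6% ± 2.08 (SD, n = 5) of its reads in Tut4/7CTL against 5.43% ± 2.32 (SD, n = 4) in Tut4/7cKO libraries, with a log2 fold change of the odds of −1.15 (SE, standard error, 0.68, edgeR adjusted P = 0.114). Reads with 3 Ts were 1.94% ± 1.21 and 0.00582% ± 0.00467 of its reads, with a log2 fold change of −8.08 (SE 1.31, edgeR adjusted P = 1.09e-07). The 2 forms summed gave −1.38 (SE 0.71, edgeR adjusted P = 0.0697), which did not pass the threshold of 0.05, although its groups did not overlap, and it passed when Tut4/7CTL replicate 2 was left out (edgeR adjusted P = 0.00116). In Tut4/7cKO libraries miR-181a-5p gave 81.4% ± 7.37 (SD, n = 4) of all reads with 2 or 3 Ts, against 45.8% ± 17.7 (SD, n = 5) in Tut4/7CTL libraries. The groups overlapped in this measure, with 74.8% in Tut4/7CTL replicate 2 and 71.1% in Tut4/7cKO replicate 1.

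miR-92a-3p, whose locus on chromosome 14 encodes 2 Ts, fell in both forms. Its reads with 2 Ts numbered 305, 102, 691, 720 and 1436 in Tut4/7CTL against 62, 61, 68 and 25 in Tut4/7cKO libraries. Its reads with 3 Ts, which no locus encodes, numbered 29, 5, 49, 63 and 111 against 1, 0, 1 and 1. The edgeR adjusted P was 2.06e-06 for 2 Ts and 0.00026 for 3 Ts. Both forms made up 2.42% ± 1.09 (SD, n = 5) of its reads in Tut4/7CTL against 0.189% ± 0.0212 (SD, n = 4) in Tut4/7cKO libraries, without overlap between the groups. The log2 fold change of the odds was −3.55 (SE 0.75, edgeR adjusted P = 1.18e-05).

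Across miRNAs, the odds of a read with 2 or 3 added Ts against all other reads of the same miRNA fell in 46 of 68 miRNAs tested (67.6%) and rose in 0 (0.0%), with a quasi-likelihood test in edgeR and adjustment over the 68 to a threshold of 0.05. At an unadjusted P under 0.05 there were 50. DESeq2 called 44 lower and 0 higher. The 68 are the miRNAs that reached 10 reads in 5 or more libraries and had 5 or more reads with 2 or 3 Ts in all. Since Tut4/7CTL libraries alone could meet that minimum, and 27 of the 68 had no such read in any Tut4/7cKO library, the count describes these miRNAs and does not stand for all 166. The remaining 98 miRNAs had 167 such reads in Tut4/7CTL against 21 in Tut4/7cKO libraries. The fitted log2 fold change was below 0 in 66 of the 68, with a median of −3.93, or −2.51 with the miRNAs at 0 placed at the bound that 3 counts over the group allow. Of the miRNAs with no genomic T, 21 of 29 fell, and of those with at least 1, 25 of 39 fell. In 24 of the 68, every Tut4/7CTL library was above every Tut4/7cKO library. Without Tut4/7CTL replicate 2 the number that fell was 56, and 46 of these were the same as with all libraries.

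miR-423-3p, which with miR-423-5p comes from 1 hairpin, had the smallest P value. It had 42, 5, 48, 80 and 58 reads with 2 or 3 Ts in Tut4/7CTL against 0, 0, 1 and 0 in Tut4/7cKO libraries, although it was about as deeply read in both genotypes (62827 and 67449 reads). Its share was 250 times lower over the summed libraries (exact 95% counting interval 44.5 to 9922), and the log2 fold change of the odds was −7.20 (SE 1.07, edgeR adjusted P = 3.29e-09). miR-423-5p had 8, 2, 12, 19 and 32 against 0, 0, 1 and 0 reads (log2 fold change −6.25, SE 1.10, edgeR adjusted P = 1.54e-07). Its share over the summed libraries was lower by a factor of 128 (22.3 to 5133). Both arms of this hairpin therefore fell.

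miR-27b-3p and miR-148b-3p, which have no genomic T, were among the 10 miRNAs with the most reads with 2 or 3 Ts. miR-27b-3p had 177, 14, 99, 138 and 111 such reads, which were 3.13% ± 1.90 (SD, n = 5) of its reads, and 1, 2, 1 and 1 in Tut4/7cKO libraries, which were 0.0956% ± 0.0996 (SD, n = 4). The odds had a log2 fold change of −5.70 (SE 0.96, edgeR adjusted P = 7.86e-08). miR-148b-3p had 78, 7, 103, 109 and 90 against 1, 1, 3 and 0 reads, with a log2 fold change of −5.95 (SE 0.98, edgeR adjusted P = 5.13e-08). In miR-148b-3p 31, 3, 48, 58 and 45 of its Tut4/7CTL reads carried 3 Ts beside 47, 4, 55, 51 and 45 with 2. In miR-27b-3p only 3, 1, 2, 1 and 4 reads carried 3 Ts.

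Relatives with the same seeds hardly carried these tails. miR-27a-3p, which shares the seed tcacagt with miR-27b-3p, had 1 such read among 8680 Tut4/7CTL reads and 0 among 12437 Tut4/7cKO reads. miR-148a-3p, which shares the seed cagtgca with miR-148b-3p, had 4 among 25362 and 0 among 32826, which allows a share of up to 0.00914%. Neither had enough of these reads to be tested.

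Other miRNAs with the smallest P values in this comparison had from 1 to 42 such reads over the 4 Tut4/7cKO libraries. miR-155-5p had 89, 3, 102, 92 and 136 reads against 5, 1, 3 and 0 (log2 fold change −6.01, SE 0.99, edgeR adjusted P = 5.13e-08), although its locus encodes 3 Ts. miR-320-3p had 67, 11, 56, 72 and 97 against 5, 0, 1 and 2 (log2 fold change −5.58, SE 0.91, edgeR adjusted P = 5.13e-08). miR-181b-5p, which shares the seed of miR-181a-5p, had 301, 28, 252, 267 and 285 against 6, 16, 16 and 4 (log2 fold change −4.68, SE 0.81, edgeR adjusted P = 1.22e-07). In each of these 3 miRNAs the lowest Tut4/7CTL share, always in replicate 2, was above the highest Tut4/7cKO share. miR-652-3p (170 reads in Tut4/7CTL against 6 in Tut4/7cKO libraries), miR-744-5p (166 and 1) and miR-25-3p (133 and 2), which lies with miR-93 and miR-106b in Mcm7, fell as well, with log2 fold changes of −5.34, −6.26 and −5.88 and adjusted P values from 1.22e-07 to 1.54e-07 (edgeR). Over the summed libraries the share of miR-744-5p was lower by a factor of 137 (24.3 to 5450) and that of miR-25-3p by 78.3 (21.2 to 653), with exact 95% counting intervals. miR-26b-5p, named for its number of reads and not for its P value, went from 187, 36, 125, 123 and 56 reads to 22, 10, 26 and 11 (log2 fold change −2.46, SE 0.82, edgeR adjusted P = 0.00572), and its groups overlapped in Tut4/7cKO replicate 1.

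miR-223-3p did not pass the threshold. It had 368, 48, 153, 349 and 175 reads with 2 or 3 Ts in Tut4/7CTL against 47, 32, 24 and 21 in Tut4/7cKO libraries, which were 14.4, 4.09, 7.61, 12.7 and 22.0% of its reads against 12.6, 8.47, 1.83 and 0.556%. The groups overlapped, with Tut4/7CTL replicates 2 and 3 below Tut4/7cKO replicates 1 and 2. A log2 fold change of −1.74 was fitted (SE 0.85, edgeR adjusted P = 0.0555), and it was −2.09 (edgeR adjusted P = 0.000800) without Tut4/7CTL replicate 2. Without Tut4/7cKO replicate 1 or 2 it was −2.51 and −2.33, with adjusted P values of 0.0125 and 0.0282 (edgeR).

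In all, 22 of the 68 did not pass. miR-30d-5p, with no genomic T, had 7, 8, 6, 9 and 4 reads with 2 or 3 Ts in Tut4/7CTL against 5, 8, 12 and 11 in Tut4/7cKO libraries. These were 0.410% ± 0.121 (SD, n = 5) and 0.355% ± 0.0564 (SD, n = 4) of its reads, a log2 fold change of −0.20 (SE 0.85, edgeR adjusted P = 0.827), and that error leaves room for a change in either direction. It was singled out after its values were seen, since similar numbers of these reads were found in both genotypes. miR-7a-5p, whose locus on chromosome 13 encodes 3 Ts, had 7, 0, 4, 9 and 9 against 0, 1, 1 and 1 reads (log2 fold change −2.01, SE 1.12, edgeR adjusted P = 0.0931). Without Tut4/7CTL replicate 2, which had no such read, its log2 fold change was −2.43 (edgeR adjusted P = 0.00494). miR-21a-5p, widely raised in cancer, had 12 reads in Tut4/7CTL against 6 in Tut4/7cKO libraries (log2 fold change −1.59, SE 1.04, edgeR adjusted P = 0.155), and it passed without Tut4/7CTL replicate 2 (edgeR adjusted P = 0.0222).

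The let-7 family, the best known target of uridylation as precursors, contributed few of these reads. Its 17 listed members gave 369 of 391931 reads in Tut4/7CTL (0.0941%) against 95 of 414634 in Tut4/7cKO libraries (0.0229%), and 8 of the 17 had any. Of 6 tested, 4 fell and 0 rose, beside 46 of all 68 tested (67.6%). let-7i-5p, the most abundant miRNA in Tut4/7CTL libraries, had 14, 3, 13, 14 and 11 such reads among 180998 in Tut4/7CTL against 3, 0, 0 and 0 among 230692 in Tut4/7cKO libraries (log2 fold change −4.16, SE 1.0, edgeR adjusted P = 0.000134). let-7d-5p had 19, 3, 14, 14 and 7 against 0, 3, 1 and 0 (log2 fold change −4.14, SE 0.97, edgeR adjusted P = 8.1e-05), and let-7g-5p had 6, 0, 5, 8 and 5 against 0, 0, 0 and 1 (log2 fold change −4.15, SE 1.16, edgeR adjusted P = 0.000971). The summed share was lower by a factor of 23.4 (7.59 to 117) in let-7i-5p and 28.4 (4.63 to 1168) in let-7g-5p. In both the groups overlapped, since Tut4/7CTL replicate 2 lay at or below a Tut4/7cKO library. let-7d-3p had 11 reads in Tut4/7CTL against 0 in Tut4/7cKO libraries, where 3 counts make the fall at least 2.51-fold, with an adjusted P of 0.0199 (edgeR). It no longer passed without Tut4/7CTL replicate 1 or 5 or Tut4/7cKO replicate 3, with adjusted P values of 0.0619, 0.0543 and 0.0599 (edgeR).

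The remaining let-7 members tested were let-7a-5p and let-7f-5p, which have 2 genomic Ts at 1 locus and fewer at the other. let-7a-5p had 59, 38, 42, 49 and 16 reads with 2 or 3 Ts in Tut4/7CTL against 2, 12, 18 and 45 in Tut4/7cKO libraries (log2 fold change −1.0, SE 0.76, edgeR adjusted P = 0.222). Of these, the reads with 3 Ts, which neither locus encodes, numbered 6, 0, 6, 11 and 1 against 0 in all 4 Tut4/7cKO libraries (edgeR adjusted P = 0.0293). let-7f-5p had 1, 6, 3, 2 and 4 against 0, 3, 3 and 4 (log2 fold change −0.52, SE 0.93, edgeR adjusted P = 0.599).

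The other families, listed by name, moved as follows. Of the miR-17-92 and miR-106b-25 clusters, 7 of 17 listed members had such reads and all 5 tested fell, with a share over their summed reads of 1.77% in Tut4/7CTL against 0.115% in Tut4/7cKO libraries. This share is mostly that of miR-92a-3p, the only tested member of miR-17-92. It gave 3511 of the 3693 reads with 2 or 3 Ts in Tut4/7CTL and 219 of the 222 in Tut4/7cKO libraries. Of the miR-181 family, 2 of 4 tested fell, with 9.50% and 3.55%. Both tested miR-26 members fell (0.974% and 0.112%), and so did 1 of 2 miR-30 members (0.495% and 0.192%) and the 1 tested member of the miR-148 and miR-152 family (1.17% and 0.0122%). Single miRNAs gave most of the Tut4/7CTL reads with 2 or 3 Ts in some of these families too. They were miR-181a-5p (7576 of 8770), miR-26b-5p (527 of 624) and miR-148b-3p (387 of 392). Of the miR-10 and miR-196 family, only miR-10a-5p was tested, with 6 reads in Tut4/7CTL against 0 in Tut4/7cKO libraries, and it did not pass (edgeR adjusted P = 0.0681). No tested member of these families rose. Over all 68 tested, 67.6% fell.

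The ratio of longer tails to single Ts varied widely between miRNAs in Tut4/7CTL libraries. In the 66 miRNAs with at least 50 reads with 1 T over the 5 Tut4/7CTL libraries, it ranged from 0 to 329 per 100 with a median of 5.74, and in the 31 of these with no genomic T it ranged from 0 to 97.5 with a median of 6.49. The highest was miR-181a-5p, with 7576 longer tails to 2303 single Ts, in which 2 Ts are encoded. Next came miR-103-3p, from introns of Pank3 and Pank2, with 194 to 199 (97.5 per 100), miR-223-3p with 1093 to 1993 (54.8), miR-27b-3p with 539 to 1092 (49.4) and miR-744-5p with 166 to 348 (47.7), and none of these 4 has a genomic T. miR-103-3p had 42, 6, 28, 56 and 62 reads with 2 or 3 Ts in Tut4/7CTL against 0, 2, 1 and 1 in Tut4/7cKO libraries. The order among these 4 is that of the summed reads: per library miR-223-3p ranged from 37.8 to 105 and miR-103-3p from 80.0 to 131, so these neighbours overlapped.

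At the low end were miRNAs with many single Ts and hardly any longer tail. miR-378a-3p had 7 longer tails to 5995 single Ts (0.117 per 100) and miR-21a-5p had 12 to 2464 (0.487), and neither has a genomic T. miR-223-5p, from the same hairpin as miR-223-3p, had no longer tail, miR-340-3p had 0 to 74 and miR-3963, with 1 genomic T, had 0 to 363. A count of 0 allows up to 0.123%, 0.674% and 0.817% of the reads of these 3 miRNAs. Single Ts and longer tails were not ordered alike: in Tut4/7CTL libraries miR-378a-3p had more single Ts than miR-223-3p and 7 longer tails against 1093.

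The odds of a longer tail against a single T fell in 16 of 65 miRNAs tested (24.6%) and rose in 2 (3.08%) by the same edgeR test, and 14 fell and 1 rose with DESeq2. A miRNA was tested with at least 5 longer tails and 20 single Ts over the 9 libraries. Tut4/7CTL libraries alone could meet these minimums, and 26 of the 65 had no longer tail in any Tut4/7cKO library. The counts therefore describe the 65 miRNAs only. The 10 with the smallest P values that fell all have a genomic T at 1 locus or more, where the genome encodes the read with a single T. In miR-155-5p the longer tails went from 422 to 9 while the single Ts numbered 1738 and 2747 (log2 fold change of the ratio −5.80, SE 0.73, edgeR adjusted P = 1.21e-12). In miR-181d-5p they went from 53 to 1 beside 415 and 1342 single Ts (−6.71, SE 0.89, edgeR adjusted P = 8.49e-12). The summed share of miR-181d-5p reads with 2 or 3 Ts was lower by a factor of 166 (28.6 to 6691). In miR-181b-5p the longer tails went from 1133 to 42 beside 4888 and 4728 (−4.52, SE 0.65, edgeR adjusted P = 3.58e-10), and in miR-92a-3p from 3511 to 219 beside 127912 and 109777 (−3.54, SE 0.58, edgeR adjusted P = 3.36e-08).

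The remaining 6 of these 10 had log2 fold changes of the ratio from −3.42 to −5.63. They were miR-423-5p, with 73 longer tails in Tut4/7CTL against 1 in Tut4/7cKO libraries, miR-186-5p (75 and 4), miR-30c-5p (49 and 2), miR-139-5p (176 and 4), miR-139-3p (100 and 0) and miR-1983 (65 and 0). Both arms of miR-139, which has tumor suppressor activity in acute myeloid leukemia, were in this list. For miR-139-3p and miR-1983, which had no longer tail in any Tut4/7cKO library, the share of reads with 2 or 3 Ts was at least 10.1-fold and at least 6.0-fold lower, with the limit of 3 counts over the group. miR-139-3p had no longer tail in Tut4/7CTL replicates 1 and 2 either, and 17, 17 and 66 in replicates 3 to 5, so its groups overlapped. Of its longer tails, 42 with 3 Ts and 22 with 2 Ts were on reads that began at base 4, not at the annotated first base. For miR-1983, 48 of the longer tails, all with 2 Ts, were on reads that began at base 2.

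In miRNAs with no genomic T the ratio fell past the threshold in 4 of 28, against 12 of 37 with a genomic T, and whether these classes differ was not tested. The 4 were miR-320-3p, miR-744-5p, miR-25-3p and miR-342-3p. In miR-320-3p the ratio was 42.7, 39.3, 34.4, 27.8 and 37.3 longer tails per 100 single Ts in Tut4/7CTL against 19.2, 0, 3.57 and 9.52 in Tut4/7cKO libraries (log2 fold change −1.91, SE 0.61, edgeR adjusted P = 0.00878), which did not pass without Tut4/7cKO replicate 3 (edgeR adjusted P = 0.0737). In miR-652-3p the single Ts went from 2510 to 105 and the longer tails from 170 to 6, and the ratio did not pass (log2 fold change of the ratio −0.16, SE 0.51, edgeR adjusted P = 0.832). For miR-27b-3p, miR-148b-3p, miR-103-3p and miR-423-3p, the single Ts in Tut4/7cKO libraries numbered only 27, 52, 10 and 54, and the ratio did not pass, with adjusted P values of 0.218, 0.243, 0.286 and 0.0508 (edgeR).

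The 2 ratios that rose were those of let-7a-5p and let-7f-5p, in which the reads with 2 Ts are encoded at 1 locus. In let-7a-5p the single Ts went from 4974 to 383 and the longer tails from 204 to 77 (log2 fold change of the ratio 1.81, SE 0.63, edgeR adjusted P = 0.0183). Some of these longer tails were on reads that began at base 3. Such reads numbered 0, 4, 0, 0 and 0 in Tut4/7CTL against 0, 4, 8 and 10 in Tut4/7cKO libraries. Per library the ratio was 3.93, 21.3, 3.34, 3.67 and 2.27 per 100 in Tut4/7CTL against 3.45, 14.3, 18.9 and 30.8 in Tut4/7cKO libraries, so that Tut4/7CTL replicate 2 lay among the Tut4/7cKO libraries and the groups overlapped. In let-7f-5p the single Ts went from 1339 to 96 and the longer tails from 16 to 10 (2.94, SE 0.80, edgeR adjusted P = 0.00135), and this did not pass in a quasi-binomial model (adjusted P = 0.233). The rise of let-7a-5p no longer passed when Tut4/7CTL replicate 1, 3, 4 or 5, or Tut4/7cKO replicate 3 or 4, was left out, with adjusted P values of 0.0645, 0.0907, 0.0748, 0.0984, 0.0657 and 0.136 (edgeR). It did not pass with DESeq2 (adjusted P = 0.094) or in the quasi-binomial model (adjusted P = 0.135) either.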

How the data were processed

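Small RNAs were size selected and sequenced from 5 Tut4/7CTL and 4 Tut4/7cKO cultures, for which the study describes replicates as coming from independent animals or embryos. Adapters were trimmed by the authors with cutadapt 5.0, and Bowtie 1.3.1 mapped the reads, without mismatches, to miRBase mature sequences extended by 3 Ts (versions per the submitters' processing notes). They deposited raw counts for each distinct read and its position, and raw counts per miRNA. The latter equaled the sums of the former in all 817 miRNAs. Tails over 3 Ts, tails with other bases and ends trimmed before tailing could not be seen.

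Reads ending 2 or 3 bases past the mature end were summed per miRNA and library, and all ended in Ts. Mature sequences and all tailed reads were matched to GRCm39 with host genes from GENCODE vM39, and 142 of the 166 mature sequences had an exact RefSeq entry. Per-miRNA tests used edgeR 4.0.16 in R 4.3.3 (glmQLFit, glmQLFTest) on 2 counts per library, in a model with library terms and a read class by genotype interaction, and Benjamini-Hochberg adjustment over all miRNAs tested. Its log2 fold change is that of the odds, Tut4/7cKO over Tut4/7CTL. The standard errors given were derived from the test, as the absolute log2 fold change divided by the square root of the quasi-likelihood F statistic. Library shares were compared with two-sided exact permutation tests in SciPy 1.17.1. On simulated counts with a log2 fold change of −3, the test of 2 or 3 Ts recovered 11 of 17 changed miRNAs among 68 (64.7%) and the test against 1 T recovered 4 of 16 among 64 (25.0%), with 0 false calls. The simulated shares varied less between libraries than real Tut4/7CTL shares such as that of miR-27b-3p, and held no outlying library. These figures therefore do not tell how many real changes the tests miss or how many calls are false here. Alternatives included DESeq2 1.42.0, other minimums, a replicate block, a quasi-binomial model, subsets of reads and omission of each library.

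The miRNAs named were the 10 with the most reads with 2 or 3 Ts, the 10 of smallest P in each direction of each edgeR comparison, let-7 members with at least 5 such reads, miR-7a-5p, miR-148a-3p, miR-148b-3p and miR-27a-3p, and the 5 highest and 5 lowest ratios to 1 T. These reads, lists and rules were chosen with earlier results of these data known. miR-30d-5p, miR-652-3p as to its ratio, miR-342-3p, miR-10a-5p and those of the closing section were named after their values were seen. The split by genomic match and the values without Tut4/7CTL replicate 2 were chosen after seeing the data. The labels give no batches. The count table's columns all matched a library by name.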

Additional observations from a re-analysis of the deposited data

Results flagged for a closer look

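In each group, the lowest or highest library was compared with the rest by Dixon's criterion, over 46 groups of 4 or 5 libraries, and 8 values from 3 libraries stood apart. Chance gives about 1 in 20 for independent groups, but these groups reuse the same 9 libraries in overlapping measures. Of the 8 values, 4 were of Tut4/7cKO replicate 1, the shallowest library. It was high in reads with 2 or 3 Ts per 100 with 1 T in miRNAs with no genomic T (5.22), in the share of reads with 2 or 3 Ts of those miRNAs (0.0850%), in the share of reads with Ts that the genome does not encode (0.0581%) and in miR-26b-5p (3.94% of its reads). It held 102 reads with non-encoded Ts, of which 47 were miR-223-3p and 22 miR-26b-5p. Tut4/7CTL replicate 2 was low in miR-148b-3p (0.512%) and miR-423-5p (0.0960%). Tut4/7cKO replicate 4 was low in miR-181b-5p (0.0485%) and high in let-7a-5p (0.223%, 45 reads with 2 Ts). What set these libraries apart was not tested.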

How the results depend on the processing

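The direction of all 7 library comparisons held under every alternative, and P stayed under 0.05 in all but the paired one. With 1 library left out, the difference, Tut4/7cKO minus Tut4/7CTL, ranged from −1.26 to −0.941 percentage points for the share of reads with 2 or 3 Ts, with exact permutation P values up to 0.0357. The labels do not say whether replicate numbers pair the libraries, and no formal test of pairing was run. Between the libraries of the 2 genotypes with the same replicate number, 1 to 4, deviations from group means correlated at −0.11, −0.20, 0.43 and 0.08 in abundance (Pearson, 205 miRNAs). In the share of reads with 2 or 3 Ts they correlated at 0.27, 0.02, −0.12 and 0.11. A replicate block over 4 pairs can only reach P = 0.125 in its exact sign-flip test, and its mean paired differences were −0.998 for that share, −6.77 for longer tails per 100 single Ts, −9.03 and −0.590 for this ratio and the share with no genomic T, −11.9 for 3 per 100 with 2 Ts, and −0.519 and −0.480 for encoded and non-encoded Ts. Without miR-181a-5p the share was 0.854% in Tut4/7CTL against 0.0651% in Tut4/7cKO libraries. The number of miRNAs with changed odds of 2 or 3 Ts was 46. Leaving out Tut4/7cKO replicate 3 gave 36, the lowest, and leaving out Tut4/7CTL replicate 2 gave 56, the highest, and it was 36 with the replicate block and 38 without the block in the same 8 libraries. It was 22 of 29 when only miRNAs with no genomic T were fitted and 23 of 28 for 3 Ts alone, where fewer miRNAs were tested. Tut4/7CTL libraries, which held nearly all reads with 3 Ts, could meet these minimums alone. For the odds against 1 T, 18 changed. This was 14 to 23 with 1 library left out, 10 with the replicate block (0 rose, with adjusted P of 0.285 for let-7a-5p and 0.0724 for let-7f-5p in edgeR) and 4 of 28 with no genomic T. In alternatives other than the block, miR-320-3p lost its ratio call without Tut4/7cKO replicate 3 (edgeR adjusted P = 0.0737). let-7a-5p lost its ratio call with DESeq2 (0.094) and in the quasi-binomial model (0.135), and let-7f-5p lost it in the latter (0.233). miR-181a-5p passed for 2 or 3 Ts without Tut4/7CTL replicate 2 (0.00116) and with DESeq2 (0.0331). No result reversed. The comparisons by genomic match, and their alternatives, were chosen after seeing the data. Depth limits the ratio to 1 T in some miRNAs with no genomic T, such as miR-103-3p, with 10 single Ts in Tut4/7cKO libraries.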

Other observations

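The most abundant miRNAs differed widely in their share of reads with 2 or 3 added Ts. Of the 10 most abundant miRNAs in Tut4/7CTL libraries, miR-181a-5p had them in 12.4% of its summed reads and miR-92a-3p in 2.59%, whereas let-7i-5p had them in 0.0304%, miR-191-5p in 0.0481% and let-7g-5p in 0.0543%. Tails that the genome does not encode were found after each of the 4 bases at the mature 3′ end. Among the 192 miRNAs that passed the minimum of reads, the share of such reads over summed Tut4/7CTL reads was 1.46% for the 36 that end in A, 0.638% for the 40 that end in C, 0.284% for the 48 that end in G and 0.442% for the 68 that end in T. The highest single miRNA that ends in A was miR-223-3p at 11.8%, and the median per miRNA was at most 0.0473% for every base. miR-223-3p alone gave 1093 of the 1944 such Tut4/7CTL reads of the miRNAs that end in A. These shares are given with no test.

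Of the reads with 2 or 3 Ts, 97.6% began at the annotated first base, against 98.2% of all other reads. These are values over all libraries and miRNAs, and single miRNAs differed. Reads of miR-181b-5p with 2 Ts that began at base 2 numbered 3, 4, 3, 6 and 12 in Tut4/7CTL against 4, 10, 11 and 3 in Tut4/7cKO libraries. For let-7a-5p, reads with 2 Ts from base 3 numbered 0, 4, 0, 0 and 0 against 0, 4, 8 and 10. Whether starts differ between genotypes was not tested.

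In Tut4/7cKO libraries, 4495 reads with 2 or 3 Ts remained, and miR-181a-5p (3740), miR-92a-3p (219), miR-223-3p (124), let-7a-5p (77) and miR-26b-5p (69) gave most of them. miR-1839-5p, which has 3 genomic Ts, had 8, 7, 3, 5 and 0 such reads in Tut4/7CTL against 1, 4, 5 and 21 in Tut4/7cKO libraries. These were 5.15% ± 3.70 (SD, n = 5) and 4.13% ± 2.13 (SD, n = 4) of its reads, with overlapping groups and a log2 fold change of −0.26 (SE 1.01, edgeR adjusted P = 0.822), which did not pass. miR-351-5p, with no genomic T, had 16, 2, 39, 36 and 54 against 0 in all 4 Tut4/7cKO libraries, a share at least 40.7-fold lower. miR-146b-5p had 2 reads in Tut4/7CTL against 8 in Tut4/7cKO libraries, and its log2 fold change of 0.80 (SE 1.11, edgeR adjusted P = 0.5) did not pass.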
